A study of Rattus norvegicus with 32 samples.

Results

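The ozone by surgery interaction asks, gene by gene, whether ozone changed expression by a different amount in rats without adrenals than in rats that kept them. It was measured here in the hypothalamus. All 16 hypothalamus libraries of the 32 libraries in the study enter it, and the other 16 are brainstem libraries. The animals were Wistar Kyoto rats, 13 weeks old. They had undergone either a total adrenalectomy, called ADREX, or a sham operation that leaves the glands in place, and then breathed filtered air or 0.8 ppm ozone for 4 hours, with tissue frozen straight afterwards. The 4 groups are sham in air, sham in ozone, ADREX in air and ADREX in ozone, with 4 libraries each. The interaction is the log2 ozone-to-air change in ADREX rats minus that in sham rats. A negative value means that ozone raised the gene less, or lowered it more, when the adrenals were absent. The labels do not say whether ADREX rats received replacement steroid. They do not say that each library came from its own animal either, and any p-value below therefore reflects library-to-library spread, which may be technical.

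The adrenal cortex releases corticosterone, the main glucocorticoid of the rat, when the hypothalamus drives the pituitary through corticotropin-releasing hormone, and the adrenal medulla releases adrenaline. Corticosterone crosses into the brain and binds the glucocorticoid receptor, which moves to the nucleus and switches on genes such as Fkbp5, whose product in turn dampens the receptor. Adrenalectomy removes both hormones from the circulation, and the interaction asks which ozone responses differ when the glands are gone.

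Values are normalized read counts per gene, taken as log2(value + 1) for testing. Of 22587 genes, 14483 had a mean of 10 or more over the 16 libraries and were tested, and 8104 were left out. Usp51, with a mean of 10.0045, was just inside this limit, and Fgf14, with 9.9956, just outside. The hypothalamus libraries held 6.44 to 9.11 M reads. The tissue label was checked with regional genes. Of 19 hypothalamic markers 12 were higher in every hypothalamus library than in every brainstem library, with 0 the other way round, and of 15 hindbrain Hox genes 12 were higher in every brainstem library. Transcripts from neighbouring or foreign tissue varied between libraries. Summed normalized counts of 20 liver transcripts ranged from 5865 to 45045, and were highest in sham air 2, ADREX air 68 and sham ozone 18. That list also holds Ttr and Tf, which brain tissue makes as well. Choroid plexus markers ranged from 211 to 8478, with the highest sums in ADREX air 67 and ADREX ozone 82, and red blood cell transcripts from 70.4 to 6053, highest in sham ozone 17. Markers of thalamus, striatum and cortex ranged from 10111 to 16579 (median 11066), highest in ADREX ozone 84. That library also had the highest oligodendrocyte and endothelial sums. No choroid, liver or red blood cell transcript was called for the interaction, and the results without these libraries are given below.

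Promoter sequences are shown first, because Fkbp5, the gene with the smallest p, is a known target of a DNA-binding hormone receptor and the windows show whether that receptor's core letters recur among the calls. RefSeq promoter windows of the GRCr8 assembly, each running from 250 bases before to 50 bases after a transcript start, were on hand for 14 of the 20 genes called for the interaction. Each window was searched on both strands for AGAACA, the core hexamer to which each partner of a glucocorticoid receptor dimer binds, and for the palindrome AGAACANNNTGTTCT that contains it. The strongest call, Fkbp5, has no match in its window. Printed after it are the 3 called genes that do have a match, chosen for that and not by rank. Each printed window of these has a single hexamer, in capitals. In Svil it lies on the opposite strand and so reads as TGTTCT.
Fkbp5, chr20:6543506-6543805, minus strand: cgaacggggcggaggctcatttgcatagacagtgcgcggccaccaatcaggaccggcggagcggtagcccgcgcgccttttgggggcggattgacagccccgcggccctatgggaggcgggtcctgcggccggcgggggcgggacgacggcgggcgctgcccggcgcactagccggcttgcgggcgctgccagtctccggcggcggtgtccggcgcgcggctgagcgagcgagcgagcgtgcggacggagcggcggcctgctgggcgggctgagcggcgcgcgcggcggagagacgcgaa
Plin4, chr9:1024727-1025026, minus strand: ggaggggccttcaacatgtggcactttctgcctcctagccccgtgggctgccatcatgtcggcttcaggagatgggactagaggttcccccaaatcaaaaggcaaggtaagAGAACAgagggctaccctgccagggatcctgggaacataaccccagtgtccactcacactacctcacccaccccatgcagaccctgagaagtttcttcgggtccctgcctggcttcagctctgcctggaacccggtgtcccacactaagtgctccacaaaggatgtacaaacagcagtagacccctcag
Svil, chr17:57462611-57462910, minus strand: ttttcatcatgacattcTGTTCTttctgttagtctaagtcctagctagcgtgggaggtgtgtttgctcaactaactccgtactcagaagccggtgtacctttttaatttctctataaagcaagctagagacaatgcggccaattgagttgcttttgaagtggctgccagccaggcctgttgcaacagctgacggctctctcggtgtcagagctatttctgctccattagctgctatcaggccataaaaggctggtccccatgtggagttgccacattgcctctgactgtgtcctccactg
Ston1, chr6:11615586-11615885, minus strand: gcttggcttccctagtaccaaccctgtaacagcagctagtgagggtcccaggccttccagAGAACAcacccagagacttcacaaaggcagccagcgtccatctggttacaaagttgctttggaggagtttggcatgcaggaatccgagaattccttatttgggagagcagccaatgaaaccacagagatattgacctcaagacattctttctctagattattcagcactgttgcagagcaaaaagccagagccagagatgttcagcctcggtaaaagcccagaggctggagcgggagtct

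The hexamer was thus found in 3 of 14 called genes, which is 21.4% of them, against 13.1% of the 10150 tested genes that have a window and 21.6% of all 27456 RefSeq genes with one. The Plin4 match is in 1 of the 5 windows listed for that gene. The palindrome was in no window of a called or tested gene and in 5 of all 33465 windows. These matches describe short stretches of sequence and say nothing of receptor binding, which was not measured.

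Ozone had a different effect without the adrenals for 20 genes, which is 0.138% of the 14483 tested (limma, Benjamini-Hochberg adjusted p under 0.05). In 17 of them, 0.117%, the interaction was negative, and in 3, 0.0207%, it was positive. The negative calls were Plin4, Pla2g3, Fkbp5, Cdkn1a, Gpd1, Gpatch4, Tnfrsf11a, Pnpla2, LOC100911615, Pex11a, Aspa, Lonrf3, Ston1, Svil, Gramd3, Sesn1 and Znf740, in order from -3.25 to -0.55. The positive calls were Rasgrp3, Opalin and Ccnd1, at 0.99, 0.71 and 0.71. The median interaction of all genes tested was 0.01. At an unadjusted p under 0.05 limma counted 637 genes, 4.40%. EdgeR's quasi-likelihood test on the recovered reads also called 20 genes, and the same 20 were among them. DESeq2 on those reads called 53, with 36 lower and 17 higher, and limma with sample weights called 90, with 58 lower and 32 higher.

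The 20 calls share a layout of the 4 groups. In 17 of them all 4 sham ozone libraries lay above the other 12 libraries, and in the other 3 all lay below. Over all genes tested, 288 (1.99%) lay above or below in this way.  Ozone against air in ADREX rats gave estimates from -0.71 to 0.64 for the 20 genes, with limma adjusted p from 0.586 to 0.994. ADREX against sham rats in air gave estimates from -1.03 to 0.32, with limma adjusted p from 0.353 to 0.9996. For 17 of the 20 genes the 95% interval of the ADREX ozone change held 0. The exceptions were Pla2g3 (0.03 to 1.26), Plin4 (-1.41 to -0.01) and Opalin (0.17 to 0.55). In air, the 95% interval of ADREX against sham rats left out 0 for Gpd1 (-1.37 to -0.52) and Pla2g3 (-1.65 to -0.41). The same held for Gpatch4 (-0.91 to -0.28), Pex11a (-0.57 to -0.12), Rasgrp3 (0.01 to 0.43) and Opalin (0.06 to 0.44). The share of all genes tested with such an interval in air was not counted, so no excess among the calls is claimed. In sham rats ozone gave limma adjusted p from 4.47e-07 to 0.0571, with 19 of the 20 under the threshold. These single comparisons share libraries with the interaction and with each other, so they describe its shape and do not support it. Across the whole table limma called 230 genes (1.59%) for ozone in sham rats, 325 (2.24%) for ADREX against sham rats in ozone, 2 (0.0138%) for ADREX against sham rats in air and 0 (0.00%) for ozone in ADREX rats, where 1163 genes (8.03%) had an unadjusted p under 0.05.

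**Figure D1:**
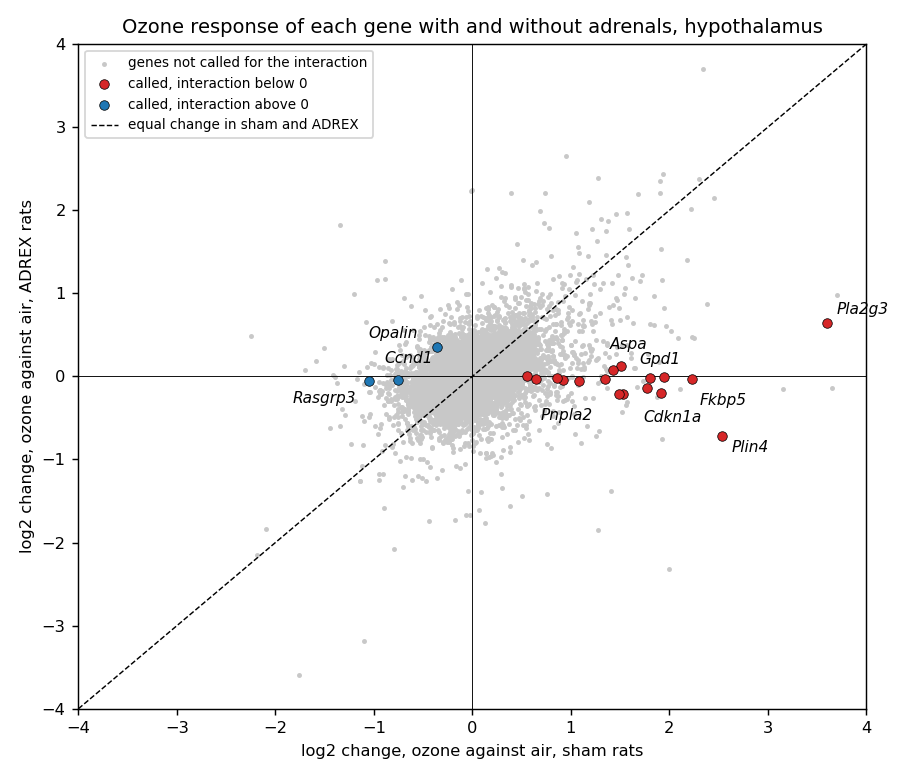
Log2 change in ozone against air in sham rats (horizontal) and in ADREX rats (vertical) for the 14483 genes tested, with the 20 genes called for the interaction in colour. Most called genes lie closer to 0 on the vertical than on the horizontal axis, while Opalin is as far from 0 on both, and the dashed line marks an equal change in both.

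Genes of the glucocorticoid response account for 5 of the 20 calls, and 9 of the 20 belong to any list used here. In what follows, values are normalized counts per library in the order sham air 1 to 4, sham ozone 17 to 20, ADREX air 65 to 68 and ADREX ozone 81 to 84. Fkbp5, the co-chaperone that lowers the affinity of the glucocorticoid receptor for its hormone, stood at 217, 342, 232 and 209 in sham air and at 1363, 947, 1209 and 1126 in sham ozone. It stood at 231, 247, 235 and 189 in ADREX air and at 223, 211, 231 and 211 in ADREX ozone. The sham ozone libraries were all high and did not overlap any other group, and the ADREX ozone values lay within the range of ADREX air. Ozone raised Fkbp5 4.69-fold in sham rats and left a ratio of 0.976 in ADREX rats. The interaction was -2.26 ± 0.20 (SE; 95% interval -2.69 to -1.83; limma adjusted p = 6.54e-05), the smallest p of all genes tested. Without adrenals the ozone-to-air ratio was thus 4.80 times smaller.

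Cdkn1a encodes p21, an inhibitor of cyclin-dependent kinases that both glucocorticoids and p53 induce. Its counts were 296, 288, 231 and 220.3 in sham air and 950.0, 942, 1109.9 and 904 in sham ozone, against 185, 199.6, 289 and 222 in ADREX air and 166, 168, 190.0 and 256 in ADREX ozone. Only the sham ozone libraries exceeded 900, and the remaining 12 ran from 166 to 296. The interaction was -2.12 ± 0.22 (-2.58 to -1.65; limma adjusted p = 0.000139). Sesn1, which encodes sestrin 1 and is another p53-responsive gene, had the weakest call. It rose in sham rats from 611 ± 19.5 to 963 ± 112 (mean ± SD, n = 4) and stood at 625 ± 51.7 and 610.4 ± 44.8 in ADREX air and ozone, with an interaction of -0.68 ± 0.13 (limma adjusted p = 0.0426).

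Gpd1 is the cytosolic glycerol-3-phosphate dehydrogenase, which links glycolysis to glycerolipid synthesis. Counts were 567, 571, 459 and 449 in sham air, 2083, 1606, 2209 and 2025 in sham ozone, 196, 216, 428 and 264 in ADREX air and 299, 214, 230.0 and 321 in ADREX ozone. Here the groups in air did not overlap either, since every sham air library was above every ADREX air library, but that difference of -0.95 did not pass (limma adjusted p = 0.353). The share of all genes tested whose air groups separate in this way was not counted. The interaction was -1.96 ± 0.28 (-2.55 to -1.36; limma adjusted p = 0.00407). In ADREX rats the ozone-to-air ratio was 0.997.

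Pnpla2 is adipose triglyceride lipase, the enzyme that starts the breakdown of stored fat. Counts were 165, 156, 159.9 and 146 in sham air, 437, 452, 466 and 465 in sham ozone, 123, 142, 161 and 143 in ADREX air and 147, 136, 118 and 93.8 in ADREX ozone. The interaction was -1.75 ± 0.17 (-2.11 to -1.38; limma adjusted p = 0.000125). LOC100911615, named after its values were seen, followed Pnpla2 at 0.685 to 0.775 of its count in all 16 libraries (median 0.768) and had an interaction of -1.70. Reads may be split between such a pair, since their counting is not described in the labels, so LOC100911615 is an uncertain call and not a separate gene's evidence.

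Plin4, perilipin 4, coats lipid droplets. It is a low-count gene, with 12.03, 11.5, 10.3 and 19.6 in sham air, 74.8, 70.7, 81.8 and 95.5 in sham ozone, 15.7, 24.1, 17.6 and 10.9 in ADREX air and 7.51, 21.6, 6.25 and 8.21 in ADREX ozone. Its interaction of -3.25 ± 0.47 (-4.24 to -2.26; limma adjusted p = 0.00405) is the most negative among the calls and has the widest interval of them. The estimate for ozone in ADREX rats was -0.71, and the single library ADREX ozone 82 stood above the other 3 of its group.

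**Figure D2:**
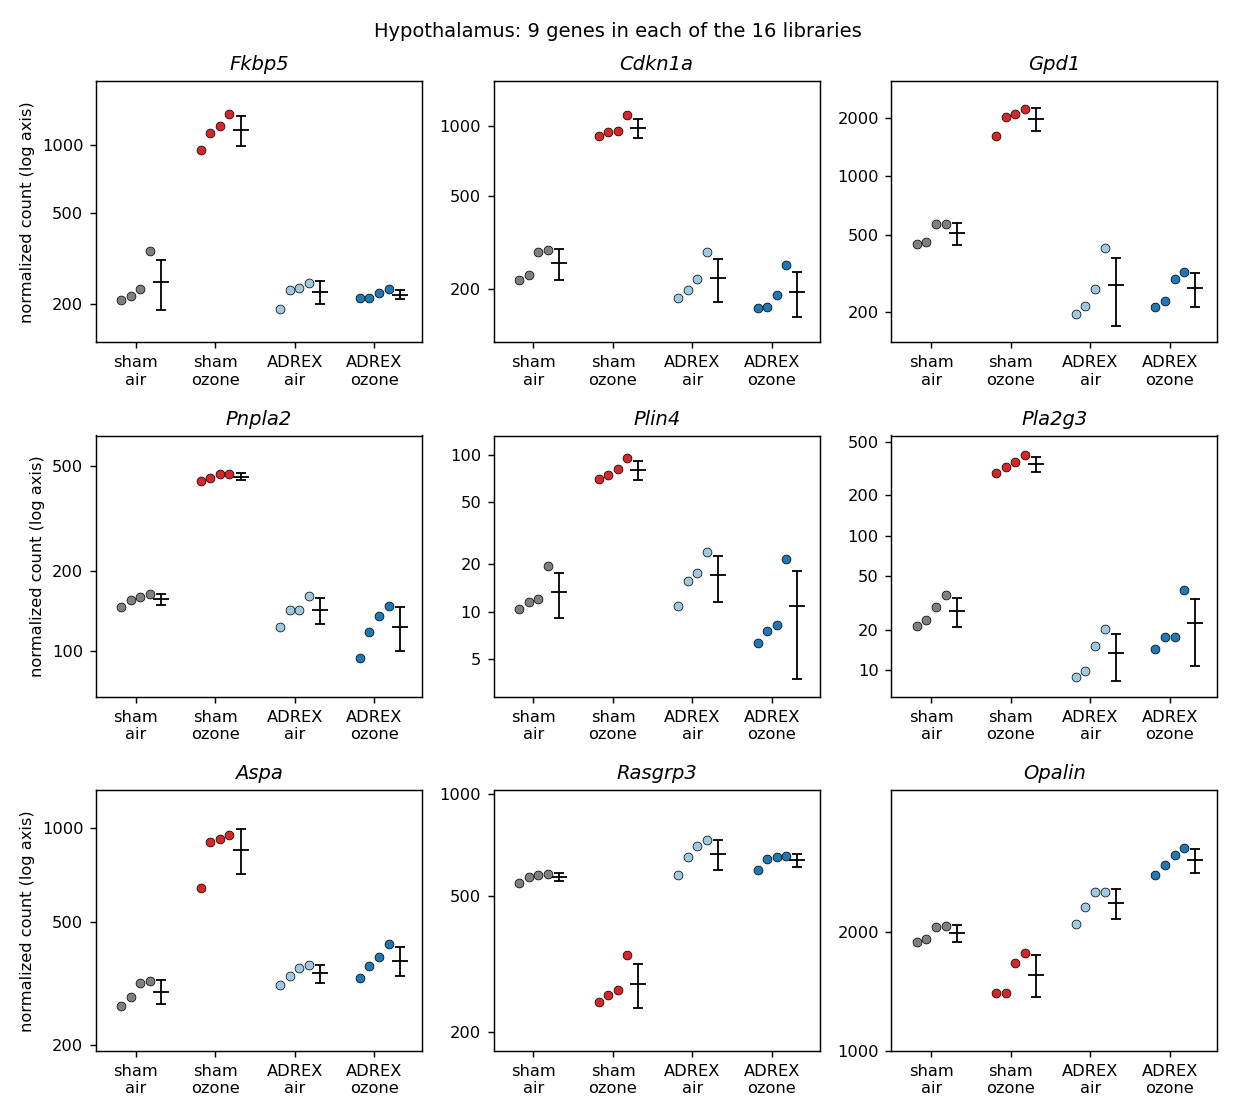
Normalized counts of 9 called genes in the 16 hypothalamus libraries, on log axes that differ between panels. Points are libraries, and the black mark and bar beside each group are the mean ± SD (n = 4). For 7 of the genes shown the sham ozone points lie above all others, and for Rasgrp3 and Opalin they lie below.

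The glucocorticoid-responsive list holds 38 genes, and all 38 passed the filter. Limma called 5 of them lower (Fkbp5, Pnpla2, Cdkn1a, Plin4 and Gpd1) and 0 higher, against 0.117% and 0.0207% of all genes tested. The median interaction of the list was -0.85, with quartiles of -1.39 and -0.35, while the median over all genes was 0.01. Estimates were negative for 37 of the 38 against 48.9% of all genes, and 22 of the 38 had an unadjusted p under 0.05. EdgeR called the same 5, DESeq2 9 lower and 0 higher, and limma with sample weights 13 lower and 0 higher. The sole estimate not below 0 was that of Dusp1, a phosphatase of MAP kinases, at 0.01, and its sign changed in several alternatives. In 15 of the 38 (39.5%) the 4 sham ozone libraries lay above the other 12, against 168 (1.16%) of all genes tested. The median change in ozone was 0.70 in sham rats and -0.03 in ADREX rats. The list rests on general knowledge of the hormone's targets, but earlier results of these data were known when it was written, so its direction is no independent evidence.

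Several members of the list did not pass although sham ozone was their highest group. Zbtb16, a zinc finger repressor, stood at 229, 98.1, 278 and 215 in sham ozone and at 19.7 to 82.4 in the other 12 libraries. Its interaction of -2.26 ± 0.44 came to limma adjusted p = 0.0672. Hif3a, a hypoxia-inducible factor subunit, stood at 125, 48.1, 153 and 97.5 in sham ozone against 1.003 to 17.6 elsewhere, with -3.30 ± 0.82 (limma adjusted p = 0.242). In both genes sham ozone 18 was the lowest of its group. Bcl6, a transcriptional repressor, had an interaction of -1.12 ± 0.22 (limma adjusted p = 0.0678), and the metallothionein Mt2A -2.12 ± 0.62 (limma adjusted p = 0.410). The mTOR inhibitor Ddit4, the transcription factor Klf9, the phagocytic receptor Mertk and the kinase Pdk4, which restrains glucose oxidation, had -0.95, -0.57, -0.72 and -1.48 (limma adjusted p from 0.210 to 0.410). Ddit4, Klf9, Mertk, Mt2A, Pdk4, Hif3a and Dusp1 are outside the naming rule and were chosen after their values were seen. With sham ozone 18 left out limma called 9 members lower and 0 higher, adding Zbtb16, Bcl6, Ddit4 and Klf9. Without the 3 liver-rich libraries it called 9 of 37, and without the 2 choroid-rich libraries the same 5 of 38.

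The classical panel genes of the same response gave smaller or less even differences. Sgk1, the serum- and glucocorticoid-regulated kinase, stood at 830.3, 302, 292 and 489.6 in sham air, 1244, 476, 1494 and 932 in sham ozone, 195, 209, 347 and 289 in ADREX air and 229, 239.9, 263 and 361 in ADREX ozone. The sham groups overlapped, and the interaction of -1.04 ± 0.49 (-2.07 to -0.01) did not pass (limma adjusted p = 0.9997). Tsc22d3, the leucine zipper protein GILZ, had -0.52 ± 0.15 (limma adjusted p = 0.384), although its 4 sham ozone libraries, at 1918 to 2456, were above the other 12. Per1, a clock gene that glucocorticoids induce, had -0.43 ± 0.30 with an interval of -1.06 to 0.19 (limma adjusted p = 0.9997).

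Genes of lipid droplets, lipolysis and the switch from glucose to fat as fuel gave 4 calls, all lower, among 21 members that passed the filter of 24 listed (Pnpla2, Pex11a, Pla2g3 and Plin4, of which Pnpla2 and Plin4 were described above), against 0.117% of all genes tested. EdgeR, DESeq2 and limma with sample weights called the same 4. Pnpla2 and Plin4 also count among the calls of the glucocorticoid list. Earlier results of these data were known when the lipid list was written, so its calls are no independent evidence. The median of the whole list was -0.14, against 0.01 for all genes, and ran from -0.23 without ADREX ozone 84 to -0.07 without sham ozone 18. Pla2g3, a secreted phospholipase A2, had the largest sham response of the 20. It stood at 36.1, 29.7, 23.5 and 21.4 in sham air and 326, 291, 399 and 353 in sham ozone, and at 8.83, 15.05, 20.1 and 9.78 in ADREX air and 39.4, 14.4, 17.5 and 17.6 in ADREX ozone. Sham rats thus showed a 12.1-fold rise, and ADREX rats a ratio of 1.56, with ADREX ozone 81 the highest library of its group. Every ADREX air library was below every sham air library, a difference that did not pass (limma adjusted p = 0.689). As for Gpd1, the share of all genes tested with such a separation was not counted. The interaction was -2.96 ± 0.41 (-3.83 to -2.08; limma adjusted p = 0.00309).

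Pex11a takes part in the division of peroxisomes, where fatty acids are oxidised. Counts were 194, 231, 178 and 166 in sham air, 506, 444, 504 and 495 in sham ozone, 162, 138, 144 and 155 in ADREX air and 163, 139, 136 and 148 in ADREX ozone. The interaction was -1.38 ± 0.15 (limma adjusted p = 0.000178), and the ADREX groups overlapped. Other members had estimates on both sides of 0. The thioesterase gene Acot1 had 0.89 (limma adjusted p = 0.761), the carnitine palmitoyltransferase gene Cpt1a 0.02, the hormone-sensitive lipase gene Lipe -0.12 and the lipid droplet gene Plin2 0.28 (limma adjusted p = 0.9997 for these 3), all named after their values were seen.

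The oligodendrocyte markers held calls in both directions. These cells wrap axons in myelin, and Aspa, the aspartoacylase they use to split N-acetylaspartate, is among their markers. Aspa stood at 267, 316, 286 and 321 in sham air, 950.0, 639.9, 906 and 921 in sham ozone, 334, 355, 312 and 362 in ADREX air and 424, 329.8, 359 and 383 in ADREX ozone. Sham ozone was again high, with sham ozone 18 well below the other 3 of its group but above all 12 other libraries. The interaction was -1.37 ± 0.17 (-1.73 to -1.02; limma adjusted p = 0.000744).

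Opalin, a membrane protein of myelinating oligodendrocytes, had an interaction of the opposite sign. It stood at 1924, 2061, 1881 and 2074 in sham air and 1665, 1766, 1407 and 1399 in sham ozone, and at 2519, 2093, 2522 and 2316 in ADREX air and 3126, 2779.5, 2949 and 3254 in ADREX ozone. Like Plin4, it had estimates of opposite sign whose intervals left out 0 in both operations, -0.35 ± 0.09 in sham rats and 0.36 ± 0.09 in ADREX rats. Neither Opalin change passed by itself (limma adjusted p = 0.0571 and 0.586). The interaction was 0.71 ± 0.13 (0.45 to 0.98; limma adjusted p = 0.0229).

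Of the 18 oligodendrocyte markers tested, 1 was called lower and 1 higher, against 0.117% and 0.0207% of all genes tested. This list too was written with earlier results of these data known. The median was 0.08, and -0.03 without ADREX ozone 84. Their summed counts were 136919 to 153454 in sham air, 149101 to 166289 in sham ozone, 164889 to 180659 in ADREX air and 164802 to 214791 in ADREX ozone. The sums were thus higher in both ADREX groups than in sham air, and none of the markers was at 0 throughout. The part of this in the 2 calls was not tested. In whole tissue, more cells of a type and more RNA per cell cannot be told apart. Estimates of myelin protein genes included 0.09 for Mbp and 0.08 for Mog (limma adjusted p = 0.9997 for each; named after their values were seen). Of the 18 markers, 5 had an unadjusted limma p under 0.05, 3 of them higher and 2 lower. All 4 sham ozone libraries lay above the other 12 for 2 markers, Mal and Aspa. They lay below for 3, Opalin, Ermn and Ugt8, and over all genes tested 1.99% lay above or below. Mal, Ermn and Ugt8 were also named after their values were seen.

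Rasgrp3 and Ccnd1 complete the positive calls. Rasgrp3, an exchange factor that activates Ras and Rap, stood at 584, 546, 579 and 572 in sham air, 257, 337, 246 and 266 in sham ozone, 651, 703, 579 and 732 in ADREX air and 657, 596, 645 and 654 in ADREX ozone. Ozone thus left 0.483 of the air level in sham rats and 0.961 in ADREX rats. The interaction was 0.99 ± 0.14 (0.70 to 1.28; limma adjusted p = 0.00305). Ccnd1, cyclin D1, which drives cells into the cycle, fell in sham rats from 334 ± 14.7 to 198 ± 14.4 and stood at 374 ± 26.6 in ADREX air and 364 ± 34.7 in ADREX ozone. Its interaction of 0.71 ± 0.12 (limma adjusted p = 0.0224) was among the weaker calls. Cyclin D1 and p21, which act on the same kinases, therefore had interactions of opposite sign.

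The other negative calls belong to no list used here. Gpatch4, a protein with a G-patch domain, stood at 139 to 175 in sham air and rose to a range of 422 to 617 in sham ozone. It stood at 78.5 to 135 and 87.3 to 101 in ADREX air and ozone. Its interaction was -1.92 ± 0.21 (limma adjusted p = 0.000204). Tnfrsf11a encodes RANK, the receptor for RANK ligand, which in bone drives osteoclast formation. It stood at 42.3 to 64.2 in sham air, 136 to 216 in sham ozone, 40.2 to 87.1 in ADREX air and 38.7 to 60.1 in ADREX ozone, with an interaction of -1.83 ± 0.32 (limma adjusted p = 0.0227). Lonrf3, a RING finger protein, stood at 244 to 332 in sham ozone against 87.3 to 139.8 in the other 12 libraries and had an interaction of -1.35 ± 0.22 (limma adjusted p = 0.0107).

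Svil and Ston1 are the other genes whose promoter window holds the AGAACA hexamer shown above. Supervillin, the product of Svil, ties membranes to actin and myosin. Svil stood at 307, 263, 337 and 377 in sham ozone and at 158 to 181 in the other 12 libraries, and its interaction was -0.96 ± 0.14 (limma adjusted p = 0.00451). Ston1, a stonin related to endocytic adaptors, stood at 254, 338, 293 and 272 in sham ozone and at 111 to 160.0 elsewhere, with -1.14 ± 0.18 (limma adjusted p = 0.00835). The zinc finger gene Znf740 had the smallest estimate among the calls, -0.55 ± 0.09, and a narrow spread. It averaged 2109.7 ± 40.3 in sham ozone against 1436 ± 103, 1363 ± 48.2 and 1369.9 ± 29.5 in sham air, ADREX air and ADREX ozone (limma adjusted p = 0.0110). Gramd3, a GRAM domain protein, had -0.87 ± 0.15 (limma adjusted p = 0.0214). Svil, Znf740, Gramd3 and Sesn1 are outside the naming rule and were named after their values were seen, because they complete the calls.

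Just outside the threshold lay 12 genes with limma adjusted p from 0.0531 to 0.108. They are given as values only. Positive estimates were those of the sialomucin Podxl (0.65), the interferon-induced GTPase Gbp2 (1.18), the thyroid hormone transporter Slco1c1 (0.86), the Toll-like receptor relative Cd180 (1.38), the Wnt pathway inhibitor Nkd1 (0.82) and the cadherin Cdh20 (0.60). Negative ones were those of Zbtb16, Bcl6, Tssc4 (-0.80), the small heat-shock protein Cryab (-0.75), the matrix protein Ctgf (-1.90) and the monooxygenase Fmo2 (-2.68). Sesn1, at 0.0426, and Podxl, at 0.0531, are the nearest on either side.

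Endothelial and interferon-responsive genes had positive medians. Of 19 endothelial markers tested, limma and edgeR called 0 and DESeq2 called 1, Slco1c1, as higher. Limma also called Slco1c1 without sham ozone 18 or ADREX air 66, and Slco1a4 (named after its values were seen) without sham ozone 18. With sample weights it called Slco1c1 higher and Mfsd2a lower. Of the estimates 15 were positive, 4 had an unadjusted p under 0.05 above 0 and 1 below, and the median was 0.33. Slco1c1, which carries thyroid hormone across the vessel wall, stood at 677, 657, 719 and 683 in sham air, 280.1, 382, 317 and 352 in sham ozone, 575, 727, 514 and 675 in ADREX air and 482, 519, 524 and 665 in ADREX ozone. The sham ozone libraries were all low, and the interaction of 0.86 ± 0.17 had limma adjusted p = 0.0753. Kdr, the main VEGF receptor of vessels, had 0.78 ± 0.23, and the lipid transporter Mfsd2a, which also stands in the glucocorticoid list, had -0.99 ± 0.29 (limma adjusted p = 0.410 for each; named after their values were seen). Summed endothelial counts ran from 9102 to 14638 over the 16 libraries and were highest in ADREX ozone 84. Of 22 interferon and antigen-presentation genes tested, limma and edgeR called 0, with 3 at an unadjusted limma p under 0.05, and DESeq2 called 1, Gbp2, as higher. Limma also called Gbp2 without sham ozone 18, ADREX air 66 or ADREX ozone 82. With sample weights it called Gbp2 and Gbp5 (named after its values were seen), both higher. Estimates were positive for 17, and the median of 0.24 ran from 0.05 without sham ozone 19 to 0.41 without sham ozone 18. Gbp2, which had the smallest p of the list, stood at 30.3, 39.3, 28.5 and 30.5 in sham ozone against 50.1 to 78.6 in the other 12 libraries (limma adjusted p = 0.0740).

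The genes that run the stress axis themselves gave no call. Of 22 hypothalamic neuropeptide and stress-axis genes tested of 28 listed, limma, edgeR and DESeq2 called 0, with 1 at an unadjusted limma p under 0.05, and the median was -0.04. Crh, the releasing hormone that starts the axis, stood at 14.4, 17.3, 27.3 and 24.1 in sham air, 24.6, 15.7, 21.1 and 11.2 in sham ozone, 27.5, 24.1, 25.1 and 21.7 in ADREX air and 16.9, 19.8, 17.5 and 34.0 in ADREX ozone. All groups overlapped, and the interval of -0.85 to 0.84 around -0.01 is wide at these counts. Avp, vasopressin, had 0.36 ± 0.43 (-0.55 to 1.28) and Pomc, the precursor of corticotropin and melanocortins, -0.30 ± 0.43 (-1.21 to 0.61). Nr3c1, the glucocorticoid receptor gene, averaged 1291 ± 135 in sham air, 973 ± 172 in sham ozone, 1327 ± 231 in ADREX air and 1471 ± 183 in ADREX ozone. Its interaction of 0.57 ± 0.19 (0.17 to 0.98) did not pass (limma adjusted p = 0.613), and limma, edgeR and DESeq2 called 0 of the 11 receptor, chaperone and steroid-activating genes tested, with 1 at an unadjusted limma p under 0.05 and a median of 0.06.

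Markers of neuronal activity and of oxidant defence gave no limma call. Fos, an immediate early gene, averaged 109.9 ± 28.7 in sham air and 61.5 ± 27.5 in sham ozone, and 92.6 ± 20.7 in ADREX air and 51.3 ± 7.72 in ADREX ozone. The estimates for ozone had the same sign in both operations, -0.89 in sham and -0.82 in ADREX rats, and the interaction was 0.07 ± 0.40 (-0.77 to 0.90), with a sign that changed in some alternatives. Nr4a1, another immediate early gene, had -0.25 ± 0.43, the catecholamine-synthesising enzyme gene Th -0.26 ± 0.52 and Hmox1, the haem oxygenase that oxidants induce, -0.19 ± 0.27 (limma adjusted p = 0.9997 for each). Of 26 immediate early genes, 20 NRF2 antioxidant genes, 20 HIF target genes, 20 circadian clock genes, 20 unfolded-protein-response genes and 15 heat-shock genes tested, limma and edgeR called 0, with 2, 0, 2, 1, 0 and 2 at an unadjusted limma p under 0.05. DESeq2 called 2 heat-shock genes lower, Cryab and Bag3, and 0 in the other 5 lists. Limma also called Cryab without ADREX air 65 or ADREX ozone 84, and with sample weights it called Cryab and Bag3 lower. Bag3 was named after its values were seen. The medians of these 6 lists were 0.03, -0.06, 0.03, -0.04, -0.02 and 0.08.

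The remaining lists had 0 calls with limma and edgeR. DESeq2 called 1 gene in them, Cd180 of the inflammatory and acute-phase list, as higher, and limma called it too, with Tlr2 (named after its values were seen), without sham ozone 18. Limma with sample weights called Cd180 and Tlr2 higher as well. At an unadjusted limma p under 0.05 there were 4 inflammatory genes, and 0 or 1 in each other list. Medians were near that of all genes for neurons (0.01, 16 genes), astrocytes (-0.04, 14 genes) and oligodendrocyte precursors (-0.07, 11 genes), and microglial markers had 0.11 over 16 genes. Choroid plexus markers had -0.91 over 11 genes and liver transcripts -0.52 over 20, and both turned on single libraries. The choroid median was 0.23 without ADREX air 67 and -1.71 without ADREX ozone 82, and the liver median 0.85 without ADREX air 68 and -2.14 without sham air 2. Their part in the results was not tested beyond the fits without the libraries with high sums. Red blood cell transcripts had -1.77 over 4 genes. Mural and fibroblast markers had -0.23 over 16 genes, inflammatory and acute-phase genes -0.16 over 15 (0.20 without sham air 4), pituitary markers -0.15 over 4 and ependymal and tanycyte markers -0.01 over 8. Cytosolic ribosomal protein genes had -0.11 over 23, respiratory chain genes -0.05 over 27, cholesterol synthesis genes 0.04 over 24, hypothalamic regional markers -0.01 over 14 and markers of thalamus, striatum and cortex 0.03 over 14.

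**Figure D3:**
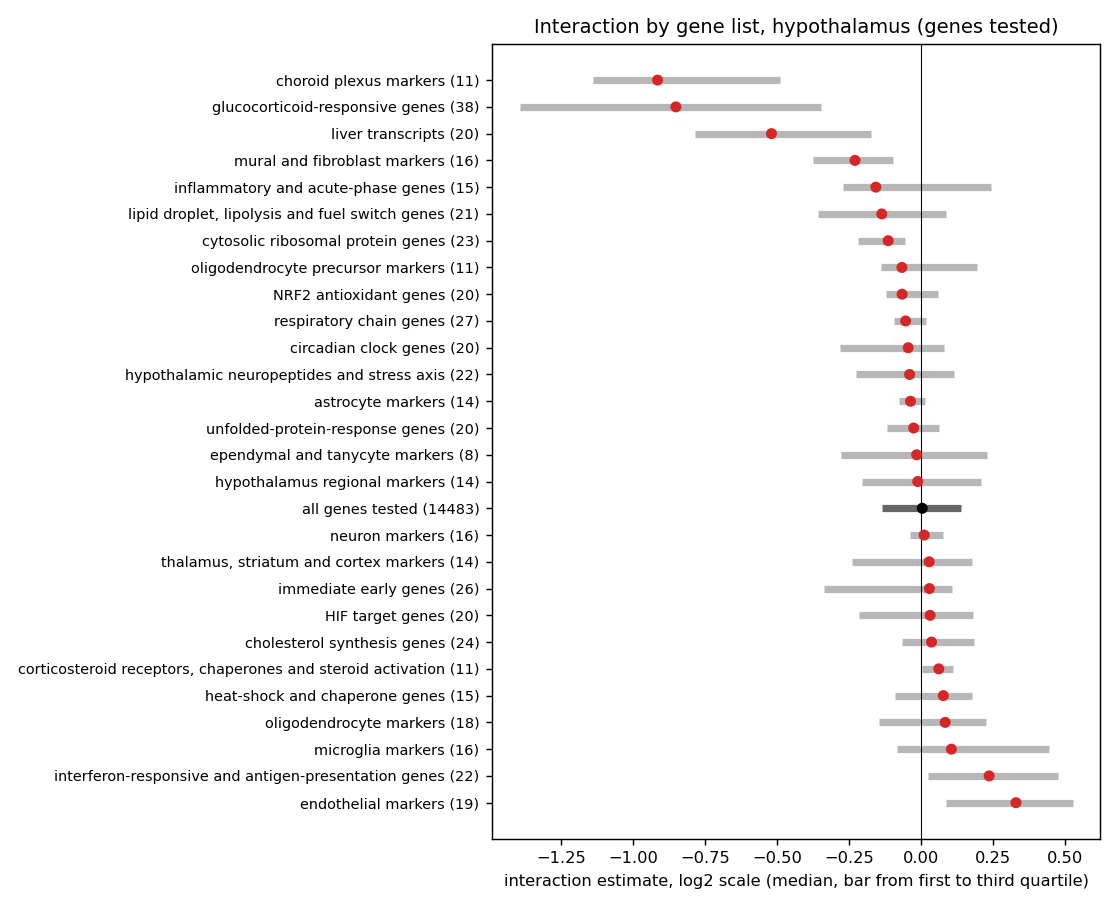
Median interaction (red points) and range from the first to the third quartile (grey bars) for gene lists with at least 8 genes tested, with the number tested in brackets and all 14483 genes in black. The glucocorticoid-responsive list has a median of -0.85, and the choroid plexus median of -0.91 is 0.23 without ADREX air 67, and the endothelial markers are at the other end with 0.33.

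The brainstem of the same study gave a second measurement of the interaction, in libraries that the hypothalamus contrast does not use. No source used here says whether libraries of both tissues came from the same animals, so the brainstem may not be an independent replicate. In the brainstem limma called 29 of 14408 genes, 0.201%, of which 22 were lower (0.153%) and 7 higher (0.0486%). All 20 hypothalamus calls were tested there and had the same sign, a share that was not counted over all genes. Of them 14 were called in both tissues, which is 70% of the hypothalamus calls and 48.3% of the brainstem calls. These counts include both Pnpla2 and LOC100911615, whose reads may be split. Plin4, Svil, Znf740, Gramd3, Opalin and Sesn1 were the 6 not called in the brainstem, with limma adjusted p from 0.0560 for Znf740 to 0.690 for Sesn1. Brainstem ADREX ozone 81 was below its group for Opalin (2291 against 3858 to 4080), Gramd3 (201 against 315 to 360) and Sesn1 (407 against 458 to 539). It was above it for Plin4 (108 against 22.8 to 29.7) and Znf740 (1560 against 1323 to 1518), and within it for Svil. The part of that library in these misses was not tested. Fkbp5 was close in both, at -2.26 ± 0.20 in hypothalamus and -2.42 ± 0.19 in brainstem, as was Gpd1, at -1.96 ± 0.28 and -1.86 ± 0.18, and Rasgrp3, at 0.99 ± 0.14 and 1.24 ± 0.12.

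A fit over all 32 libraries tested whether the interaction itself differed between the tissues. It called 0 of 14533 genes (0.00%), with 187 genes (1.29%) at an unadjusted limma p under 0.05, and edgeR and DESeq2 on the recovered reads also called 0, with 195 and 173 at unadjusted p under 0.05. A miss of the threshold does not show that the tissues responded alike. For Fkbp5 the difference, hypothalamus minus brainstem, was 0.16 with a 95% interval of -0.42 to 0.73. Intervals that left out 0 among the 20 genes were those of Plin4 (-1.82, -3.28 to -0.35), Pla2g3 (-1.21, -2.23 to -0.18), Cdkn1a (0.94, 0.16 to 1.72) and Pex11a (0.62, 0.11 to 1.13), each with limma adjusted p = 0.9999.

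Library values for these genes differed between the tissues in level and in spread. In brainstem Plin4 stood at 108, 29.5, 22.8 and 29.7 in ADREX ozone 81 to 84, so that library 81 alone came near the sham ozone libraries, which were at 119, 176, 159 and 111. Pla2g3 had a higher air level in brainstem, 129.7 to 155 against 21.4 to 36.1 in hypothalamus, and a smaller rise in sham rats, 2.18 against 3.601 on the log2 scale. Cdkn1a reached 1016 to 1478 in brainstem sham ozone and 904 to 1109.9 in hypothalamus sham ozone, while its ADREX ozone libraries were at 58.5 to 129 in brainstem and 166 to 256 in hypothalamus. The 5 genes with the smallest p for the tissue difference were Hist1h2bk (-1.92), Pcdh20 (1.16), Susd5 (-1.92), Pusl1 (-1.39) and LOC100364027 (1.65), all with limma adjusted p = 0.9999. Of these, the protocadherin gene Pcdh20 was called in brainstem (-1.78 ± 0.25; limma adjusted p = 0.00276) and not in hypothalamus (-0.62 ± 0.17; limma adjusted p = 0.365).

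**Figure D4:**
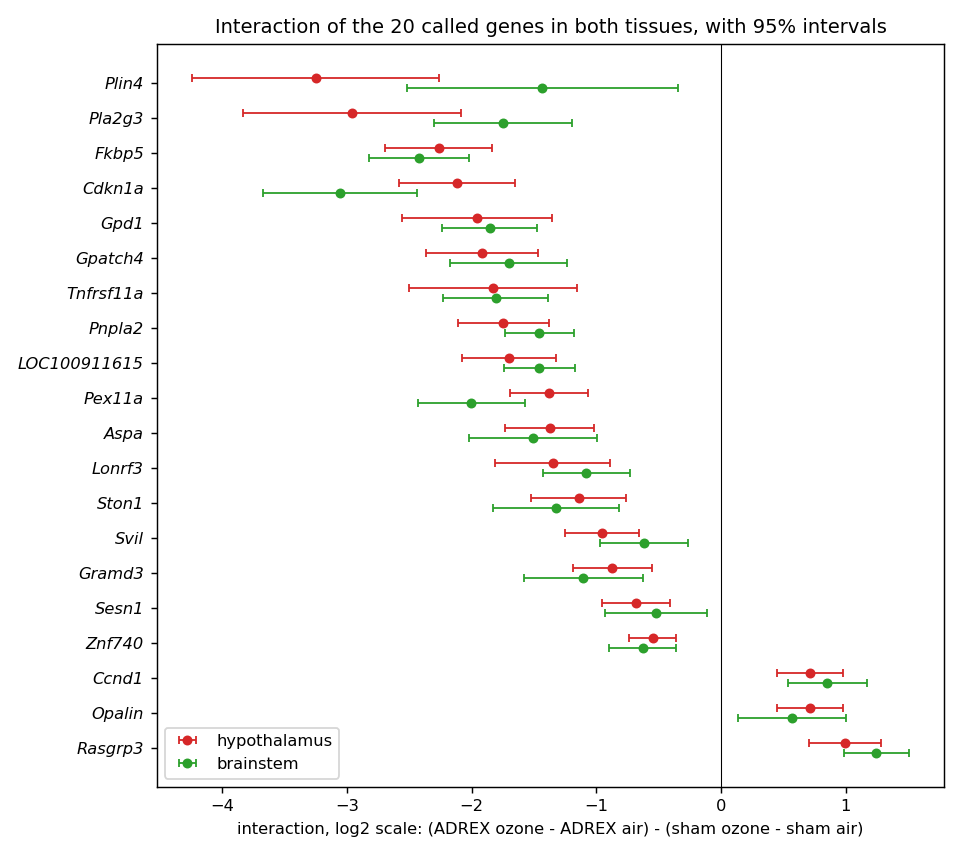
Interaction estimates with 95% intervals (limma) of the 20 genes called in hypothalamus, in hypothalamus (red) and brainstem (green). Every pair of points is on the same side of 0, with the largest gaps for Plin4, Pla2g3 and Cdkn1a.

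The calls were also counted with each library left out. The count ran from 15, without sham air 4 or sham ozone 19, to 37, without sham ozone 18, where 26 were lower and 11 higher and all 20 original calls were among them. Sham ozone 18 is one of the liver-rich libraries, and in 15 of the 20 called genes it was the sham ozone library nearest to the other 12 libraries. Such a count was not made over all genes tested. Without the 3 liver-rich libraries limma called 32 genes, 25 lower and 7 higher, with 19 of the 20 among them. Without the 2 choroid-rich libraries it called 15, 13 lower and 2 higher, all among the 20. Ston1 and Znf740 missed the threshold in that setting (limma adjusted p = 0.0541 and 0.0700). In all, 15 of the 20 calls held whichever library was left out.

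The other 5 crossed the threshold in some fits with 1 library fewer, while their estimates moved little. These ran from 0.66 to 0.76 for Ccnd1, from 0.66 to 0.78 for Opalin, from -0.95 to -0.80 for Gramd3, from -0.76 to -0.63 for Sesn1 and from -1.96 to -1.58 for Tnfrsf11a. Ccnd1 was lost without sham air 1, 2 or 4, sham ozone 17 or 19, ADREX air 66, 67 or 68, or ADREX ozone 81 or 83 (limma adjusted p from 0.0503 to 0.0735). Gramd3 was lost without sham air 4, sham ozone 17, 19 or 20, ADREX air 67, or ADREX ozone 81 or 82 (0.0538 to 0.0707), and Opalin without sham air 1, 2 or 4, sham ozone 19 or 20, ADREX air 66 or 68, or ADREX ozone 81 or 83 (0.0508 to 0.0859). Tnfrsf11a was lost without sham air 1, 3 or 4, sham ozone 17, 19 or 20, or ADREX ozone 82 or 83 (0.0515 to 0.0769). Sesn1, the weakest call, held only without sham ozone 18, ADREX air 65 or ADREX ozone 81, and had limma adjusted p from 0.0649 to 0.143 in the other fits. None of the 5 changed sign.

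**Figure D5:**
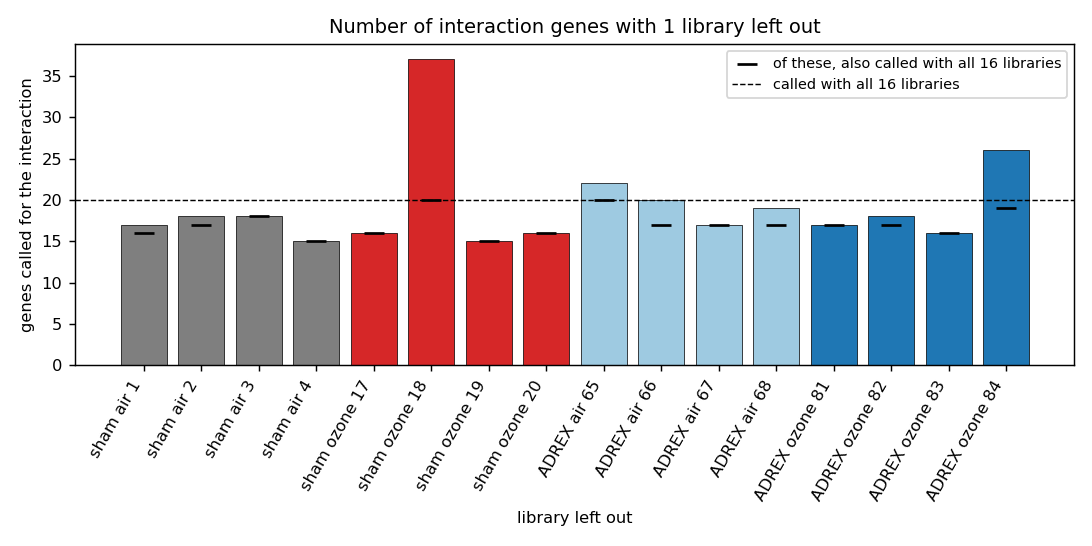
Number of genes called for the interaction in hypothalamus when the library named below each bar is left out, coloured by group (grey sham air, red sham ozone, light blue ADREX air, dark blue ADREX ozone). The dashed line is the count of 20 with all libraries, the black marks are how many of those 20 remain, and the bar for sham ozone 18 reaches 37.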

How the data were processed

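Hypothalamus and brainstem mRNA was selected and sequenced (Illumina NextSeq), per the labels' protocols. The values are a signal, normalized read counts per gene for 22587 genes in 32 libraries, which the authors deposited as a single table. Partek, DESeq2 and the rat build rn6 appear, with no role or version, per the submitters' processing notes. Aligner, annotation and strand handling: not given in the sources used here. Therefore overlapping and antisense genes cannot be told apart. Every deposited column was whole multiples of a step of 0.623 to 1.25, and dividing by it gave whole reads for every value within 0.001. Normalization across libraries can hide changes common to all genes.

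The main test was limma 3.58.1 (R 4.3.3, trended prior variance) on log2(value + 1), 4 group means, genes with a mean of 10 or more, Benjamini-Hochberg adjustment over all genes tested, and a call at adjusted p under 0.05. Fold changes on this scale understate low genes. The brainstem was fitted likewise, and the tissue difference on 8 group means. EdgeR 4.0.16 and DESeq2 1.42.0 on the recovered reads, other pseudocounts, filters and scalings, sample weights, a replicate block and left-out libraries were alternatives, and the statistics were tested on simulated data. Named were the 12 most negative and 12 most positive calls with a group mean of 50 or more and a settled symbol, up to 4 calls per list, and a panel of 12 genes. Gene lists numbered 30. The contrast, lists and panel were chosen with earlier results of these data known.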

Additional observations from a re-analysis of the deposited data

Results flagged for a closer look

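The ozone response differed between sham and ADREX hypothalamus by limma's interaction test for 20 genes, at -2.26 for Fkbp5, -1.75 for Pnpla2, -2.12 for Cdkn1a, -1.70 for LOC100911615, -1.38 for Pex11a, -1.92 for Gpatch4, -1.37 for Aspa, -2.96 for Pla2g3, -3.25 for Plin4 and -1.96 for Gpd1. For the other called genes it was -0.96 for Svil, -1.14 for Ston1, -1.35 for Lonrf3, -0.55 for Znf740, -0.87 for Gramd3, -1.83 for Tnfrsf11a, -0.68 for Sesn1, 0.99 for Rasgrp3, 0.71 for Ccnd1 and 0.71 for Opalin.

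Single libraries stood far from the other 3 of their group in 15 of 148 groups checked with Dixon's criterion, where chance flags about 1 in 20. Among called genes these were Aspa in sham ozone 18 (639.9 against 906 to 950.0 normalized counts), Pla2g3 in ADREX ozone 81 (39.4 against 14.4 to 17.6), Plin4 in ADREX ozone 82 (21.6 against 6.25 to 8.21), Znf740 in sham air 3 (1282 against 1478 to 1497), Ccnd1 in sham ozone 20 (219 against 188 to 193) and Tnfrsf11a in ADREX air 67 (87.1 against 40.2 to 45.1). In the panel they were Tsc22d3 in sham ozone 17 (2456 against 1918 to 1980.4), Crh in ADREX ozone 84 (34.0 against 16.9 to 19.8) and Hmox1 in sham ozone 20 (27.4 against 46.4 to 49.1). Summed liver transcripts stood apart in sham air 2 (45045), sham ozone 18 (35633) and ADREX air 68 (43146), choroid plexus markers in ADREX air 67 (8478) and ADREX ozone 82 (4169), and red blood cell transcripts in sham ozone 17 (6053).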

How the results depend on the processing

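The hypothalamus count of 20 calls was 53 with DESeq2, 90 with limma sample weights (which gave ADREX ozone 84 a weight of 0.234 and sham ozone 18 one of 0.270), and 32 without the 3 liver-rich libraries, a setting chosen after seeing the data. With single libraries left out it ran from 15 to 37. The brainstem count of 29 was 75 with DESeq2 and 94 with sample weights, and ran from 18 to 47 with single libraries left out, 47 being without ADREX ozone 81. The tissue difference had 0 calls in all 44 alternatives. Of the 20 genes, 13 kept their call in every alternative run and 0 changed sign. Sesn1 was also lost under quantile normalization. Fos, Crh, Th and Dusp1, none of them called, changed sign. Fos was -0.030 with edgeR, -0.023 with DESeq2 and -0.12 with sample weights, and ran from -0.20 to 0.33 with single libraries left out. Crh was 0.026 under quantile normalization, 0.025 with edgeR, 0.030 with DESeq2 and 0.037 without the 2 choroid-rich libraries, and ran from -0.23 to 0.15. Th ran from -0.57 to 0.052. Dusp1 was -0.18 with sample weights and ran from -0.20 to 0.16. Medians of the choroid plexus, liver and inflammatory lists, and of several lists with medians near 0, also changed sign with a single library left out. The cause of these changes was not tested. No scaling moved the median of all genes by more than 0.1. The hypothalamus groups share no replicate numbers, so the replicate block applies only to the tissue difference, where it gave 0 calls. Same-numbered libraries of the 2 tissues deviated together with correlations from -0.53 to 0.61 (median 0.03, 16 pairs, 1 best with its own number). Sgk1 stood at 1244, 476, 1494 and 932 in hypothalamus sham ozone 17 to 20 and at 1836, 502, 2155 and 1269 in brainstem. Its order was the same in both, while that of Th was not (339, 218, 195 and 579 against 182, 147, 156 and 126). The 1 best match was number 18, at 0.61. Red blood cell transcripts were highest in sham ozone 17 in both tissues (6053 in hypothalamus, 7938 in brainstem). Liver transcripts were highest in sham ozone 18 in brainstem (51595), and in hypothalamus in sham air 2 (45045), with 35633 in sham ozone 18. Choroid plexus markers were highest in sham air 4 in brainstem and in ADREX air 67 in hypothalamus. The numbers were not taken as pairs, and whether they mark the same animals was not settled. Depth of 6.44 to 9.11 M reads limits genes such as Crh and Plin4.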
